A study of Mus musculus with 19 samples.

Results

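Zbtb16 and 9 further genes that glucocorticoids are known to induce in liver or other tissues were followed in the RNA-seq of L-RalyKO livers. The 9 are Klf9, Fkbp5, Tsc22d3, Dusp1, Errfi1, Sgk1, Tat, Mt1 and Mt2. The set makes up 10 of the 24054 genes in the deposited table, and all 10 were expressed well enough to be tested. Zbtb16 was chosen by its rise in this very comparison, so its values are given as a description and without a test. The other 9 were chosen by their known role in glucocorticoid responses, with earlier results of these data at hand. The question was whether the rise of Zbtb16 was shared by these genes.

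All 6 mice were Raly flox/flox on a C57BL/6 background, fed chow, and each received an adeno-associated virus of serotype AAV8 that drives its cargo from the hepatocyte promoter TBG. L-RalyKO mice (n = 3) received AAV8.TBG.Cre, whose Cre recombinase removes the floxed exons 3 and 4 of Raly, a gene for an RNA-binding protein of the hnRNP family. Control mice (n = 3) received AAV8.TBG.GFP. The labels call these controls wild type, although they too carry the floxed alleles and a virus. Livers were collected 4 weeks after the virus. The methods state male mice unless specified otherwise, and the age of these mice was not given in the sources used here. The study's text gives neither the time of day of collection nor whether the RNA-seq mice had fasted. It mentions fasting mice beside its liver qPCR. TBG is active in hepatocytes, so the other cells of the liver should keep Raly. Whole liver was sequenced, and Raly was not measured by cell type. The labels do not state outright that the 3 samples of a group were separate animals, and p-values measure the spread between these samples.

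Glucocorticoids, the adrenal steroids corticosterone and cortisol, enter the cell and bind the glucocorticoid receptor (Nr3c1), which is held ready by HSP90 and its co-chaperones. The bound receptor moves to the nucleus and attaches to a palindrome of short elements in DNA, where it raises transcription of nearby genes. In liver the hormone is known for turning on gluconeogenesis and amino acid breakdown during fasting, and the same genes also answer to insulin, glucagon, cytokines, metals and the time of day.

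The DNA next to these genes is shown first, since the 2 members that share the receptor's motif are compared later. The motif was the palindrome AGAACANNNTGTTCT, which reads the same on both strands, with at most 1 mismatch in its 12 fixed bases. It was searched within 5 kb of every annotated start of a coding transcript in the mouse build NCBIM37 (mm9, GENCODE vM1). Of 46028 such windows in the genome, 6.51% held a match and 0.172% an exact one, and 8.23% of coding genes had a match in any of their windows. The search covered 22 windows of the 9 members that are in the RefSeq promoter table. Zbtb16 has no entry there and was not searched. Among them Fkbp5 and Sgk1 had a match, exact in both, and Klf9, Tsc22d3, Dusp1, Errfi1, Tat, Mt1 and Mt2 had none in these windows. The Fkbp5 match lies in an intron at chr17:28579364-28579378 on the strand of the gene (−), centred 704 bases before one of its 3 coding transcript starts. The Sgk1 match lies in an intron at chr10:21713507-21713521 on the + strand, centred 182 bases before one of its 7 coding transcript starts. Both are printed from NCBIM37 with 30 bases on either side, 5′ to 3′ on the strand of the gene, with the fixed bases of the motif in capitals.
Fkbp5: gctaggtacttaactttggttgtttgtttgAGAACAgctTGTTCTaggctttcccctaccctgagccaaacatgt
Sgk1: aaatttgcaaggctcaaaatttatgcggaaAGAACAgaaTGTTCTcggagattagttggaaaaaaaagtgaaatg

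Mt1 and Mt2 are shown for a different motif, because metallothioneins are also induced by metals. The core of the metal response element was searched as TGCACNC or TGCGCNC on both strands in promoters of 250 bases before to 50 bases after the start (RefSeq, GRCm38.p6). The table held 17 such promoters for 9 of the 10 genes. Of 32851 promoters in the table, 25.7% held at least 1 core, 1.97% at least 3 and 0.517% at least 4. The Mt1 promoter (chr8:94178839-94179138, + strand) held 3 cores and the Mt2 promoter (chr8:94172368-94172667, + strand) held 4. Dusp1 and 1 of the Sgk1 promoters held 1 core each, and the remaining promoters held none. A match of letters is a description and not a measured site. Cores on either strand are in capitals.
Mt1: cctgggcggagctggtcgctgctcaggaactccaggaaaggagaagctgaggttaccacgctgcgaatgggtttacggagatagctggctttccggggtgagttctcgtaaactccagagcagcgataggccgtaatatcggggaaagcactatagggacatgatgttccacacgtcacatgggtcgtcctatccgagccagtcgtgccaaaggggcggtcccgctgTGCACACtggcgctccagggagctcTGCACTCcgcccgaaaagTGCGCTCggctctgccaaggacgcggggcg
Mt2: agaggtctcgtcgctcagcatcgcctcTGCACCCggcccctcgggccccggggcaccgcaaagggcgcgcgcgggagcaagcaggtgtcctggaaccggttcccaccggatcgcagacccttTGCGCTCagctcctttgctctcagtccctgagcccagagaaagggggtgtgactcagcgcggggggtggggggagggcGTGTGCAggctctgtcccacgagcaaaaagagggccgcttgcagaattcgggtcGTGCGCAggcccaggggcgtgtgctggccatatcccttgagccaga

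The deposited values are reads per gene relative to a library size that the authors had scaled (CPM). They are not divided by gene length, and 1 read is worth between 0.0263 and 0.0351. Between 28302983 and 38052705 reads per liver were counted on genes. The lowest read number behind any value of the 10 genes was 207, for Zbtb16 in a control. No other annotated gene overlaps the exons of any of the 10. Raly itself had values of 6.34, 6.61 and 7.39 in L-RalyKO and of 50.1, 48.6 and 46.8 in controls (log2 fold change −2.67, adjusted p = 6.92e-07, limma). Groups were compared with limma on log2(value + 1), with Benjamini-Hochberg adjustment over the 11580 genes tested. A pseudocount of 1 makes fold changes of weakly expressed genes smaller than they are. Of all genes tested, 6.55% had an adjusted p under 0.05, 3.36% being higher (389 genes) and 3.19% lower (369), and the median log2 fold change was 0.00. With libraries scaled to their total counts the split was 324 higher and 469 lower.

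Of the 9 genes other than Zbtb16, 4 rose in L-RalyKO liver (Fkbp5, Mt2, Mt1 and Klf9), none passed the test in the lower direction, and 5 did not pass it (limma, adjusted over all genes tested). The share of all genes called higher was 3.36%. With edgeR (quasi-likelihood test, reads recovered from the values) 2 of the 9 were called higher, Klf9 and Mt1. Tsc22d3 and Sgk1 were both called lower with total count scaling, with the replicate number as a block and without L-RalyKO replicate 3. Sgk1 was also called lower with DESeq2. Each of these settings called 4 genes higher. By the values alone, every L-RalyKO mouse was above every control for 5 genes, where 14.4% of all tested genes show this, and below every control for 2 genes, where 13.7% do. In the remaining 2 genes the groups overlapped. The median log2 fold change of the 9 was 0.49, against 0.00 over all genes tested, and is the value of Dusp1. It was 0.16 without L-RalyKO replicate 1, 0.80 without L-RalyKO replicate 3, 0.23 without control replicate 2 and 0.80 without control replicate 3. The rise of Zbtb16 thus came with a rise of 4 of these genes, while Tsc22d3 and Sgk1 had lower values in L-RalyKO.

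**Figure D1:**
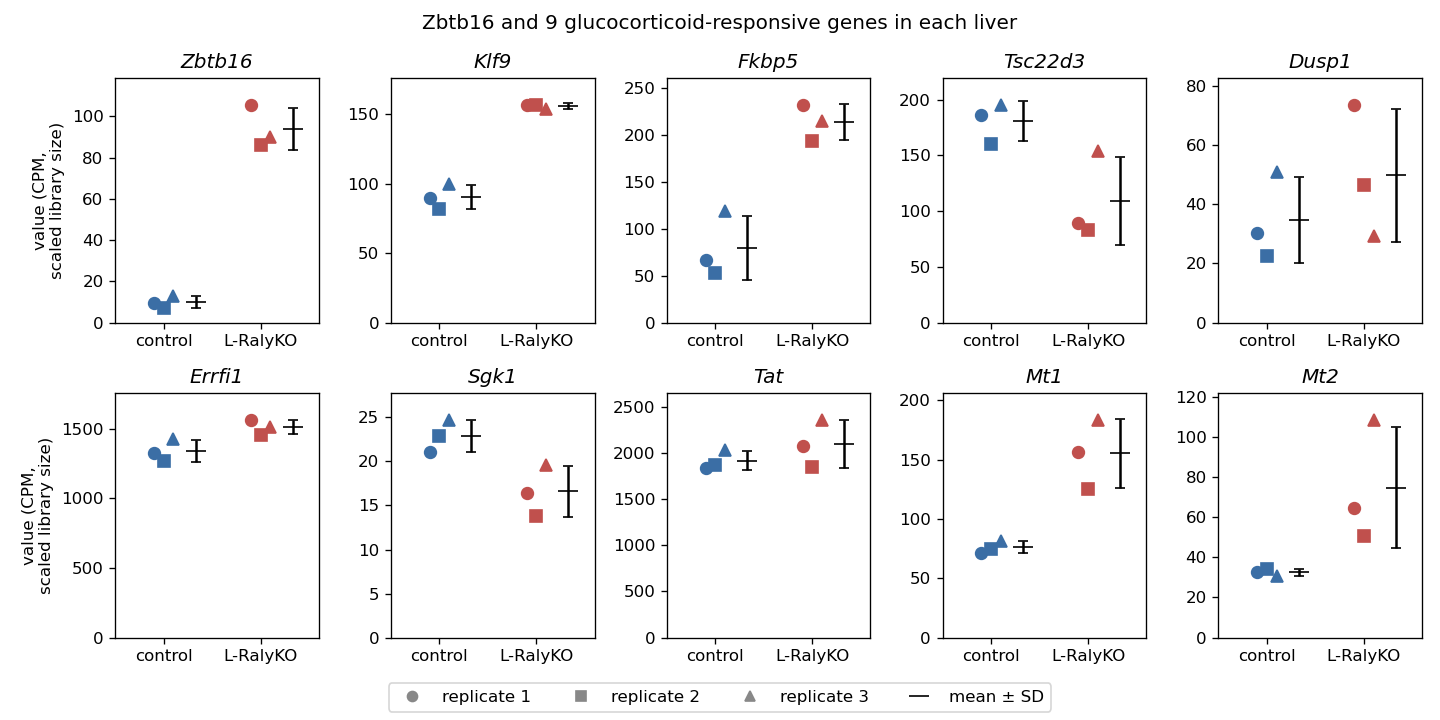
Value of each gene (vertical axis, CPM of scaled library size, from 0) in each of 3 control (blue) and 3 L-RalyKO (red) livers, with the symbol giving the replicate number and the bar giving mean ± SD. Zbtb16, Klf9, Fkbp5, Errfi1, Mt1 and Mt2 lie above all controls, Tsc22d3 and Sgk1 lie below, and Dusp1 and Tat overlap.

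Zbtb16 encodes PLZF, a zinc-finger transcription factor that glucocorticoids induce in several tissues and that also defines natural killer T cells. In NCBIM37 the gene occupies bases 48462416 to 48644050 of chromosome 9 (− strand). Its values were 106, 86.3 and 89.8 in L-RalyKO mice 1 to 3 and 9.42, 7.26 and 13.0 in control mice 1 to 3. The lowest L-RalyKO liver was thus several times the highest control, and the L-RalyKO livers were close to each other. The means were 93.9 ± 10.4 and 9.90 ± 2.92 (SD, n = 3 each), a ratio of 9.49, and the log2 fold change was 3.15 (SE 0.17). This was the highest log2 fold change of the 11580 genes, which is how the gene came to be chosen. It lay between 2.97 and 3.35 under 14 alternative settings.
Bulk liver cannot tell apart a change in the number of cells of a type and a change in RNA per cell. Of 13 markers of natural killer T, T and NK cells, 12 were below the filter on low values and Il2rb alone was tested (log2 fold change −0.17). Their summed value was 3.51 to 5.18 in L-RalyKO and 4.59 to 6.44 in controls. Of the 13, 5 had a higher and 8 a lower mean in L-RalyKO. The T cell receptor component Cd3e had a mean of 0.189 in L-RalyKO and of 0.273 in controls, the natural killer marker Klrb1c had 0.388 and 0.214, and Xcl1 had under 3 reads in every liver. The part of these cells in the values of Zbtb16 was not tested.

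Klf9 encodes a Krüppel-like transcription factor and is a direct target of the receptor in many cell types. It is located on chromosome 19 from 23215716 to 23241401 (+ strand). Its values were 157, 157 and 154 in L-RalyKO mice and 89.5, 82.0 and 99.5 in controls. The L-RalyKO livers differed from each other by less than the controls did, and all 3 were above every control. The mean was 156 ± 1.85 against 90.3 ± 8.81 (SD, n = 3), with a log2 fold change of 0.79 (SE 0.069, adjusted p = 0.000881, limma). Klf9 passed the test in all 14 alternative settings, with log2 fold changes from 0.72 to 0.86.

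Fkbp5 encodes FKBP51, a co-chaperone of HSP90 that lowers the receptor's affinity for hormone and so forms a feedback loop. It spans 28536040 to 28654469 on chromosome 17 (− strand) and holds the exact palindrome printed above. Its values were 233, 194 and 216 in L-RalyKO and 67.2, 53.1 and 119 in controls. The groups did not overlap, and control 3 stood above the other controls. The mean was 214 ± 19.2 against 79.6 ± 34.5 (SD, n = 3), a ratio of 2.69. The log2 fold change was 1.50 (SE 0.24, 95% interval 0.95 to 2.04, adjusted p = 0.0105, limma). It passed the test in 13 of 14 alternatives and missed it with edgeR (adjusted p = 0.0983). Without control replicate 3, the log2 fold change was 1.82, the highest of the alternatives, which started at 1.25.

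Tsc22d3 encodes GILZ, a leucine zipper protein that mediates part of the anti-inflammatory action of glucocorticoids. It is found on the X chromosome from 137074067 to 137135198 (− strand). In L-RalyKO its values were 89.0, 82.9 and 154, and in controls they were 186, 160 and 196. All L-RalyKO livers were below all controls, but L-RalyKO 3 came close to the lowest control. The mean was 109 ± 39.6 against 181 ± 18.3 (SD, n = 3). The log2 fold change was −0.78 (SE 0.20, 95% interval −1.25 to −0.31), and the adjusted p of 0.0594 from limma did not pass the threshold of 0.05. Without L-RalyKO replicate 3 it passed (log2 fold change −1.06, adjusted p = 0.00187, limma), and over all alternatives the adjusted p ran from 0.00187 to 0.242. It also passed with total count scaling (adjusted p = 0.0495, limma) and with the replicate number as a block (adjusted p = 0.0247, limma). The unadjusted interval of Tsc22d3 lies on the other side of zero from that of Fkbp5, while its adjusted p did not pass in the main fit.

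Dusp1 encodes a phosphatase that switches off MAP kinases, and Errfi1 encodes MIG6, an inhibitor of the EGF receptor. Dusp1 (chromosome 17, 26642535 to 26645464, − strand) had values of 73.6, 46.4 and 29.1 in L-RalyKO and of 30.4, 22.6 and 50.8 in controls. The groups overlapped, since L-RalyKO 3 was below controls 1 and 3. The log2 fold change was 0.49 (SE 0.35, 95% interval −0.30 to 1.28, adjusted p = 0.446, limma). It moved with single mice, to 0.16 without L-RalyKO replicate 1, 0.82 without L-RalyKO replicate 3, 0.23 without control replicate 2 and 0.80 without control replicate 3.
Errfi1 (chromosome 4, 150228028 to 150243001, + strand) had values of 1564, 1457 and 1511 in L-RalyKO and of 1327, 1269 and 1425 in controls. Each L-RalyKO liver was above each control by a small margin. The mean was 1511 ± 53.7 against 1340 ± 78.7 (SD, n = 3), with a log2 fold change of 0.17 (SE 0.064, 95% interval 0.03 to 0.32, adjusted p = 0.148, limma). Neither gene passed the test in any of 14 alternatives.

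Sgk1 encodes a kinase that glucocorticoids and mineralocorticoids induce and that regulates ion transport. It spans 21601990 to 21719709 on chromosome 10 (+ strand) and holds the other exact palindrome. Its values were 16.5, 13.8 and 19.6 in L-RalyKO and 21.0, 22.9 and 24.8 in controls. Every L-RalyKO liver was below every control, with a narrow gap between L-RalyKO 3 and control 1. The mean was 16.6 ± 2.89 against 22.9 ± 1.86 (SD, n = 3), with a log2 fold change of −0.45 (SE 0.12, 95% interval −0.71 to −0.18, adjusted p = 0.0571, limma). It passed the test in 4 of 14 alternatives. These were DESeq2 (adjusted p = 0.00638), total count scaling (adjusted p = 0.0393, limma) and the replicate number as a block (adjusted p = 0.0393, limma). The last was the fit without L-RalyKO replicate 3 (log2 fold change −0.57, adjusted p = 0.0265, limma). The adjusted p ran from 0.00638 to 0.147 over the 14. Fkbp5 and Sgk1, which hold the same motif, had log2 fold changes of opposite sign, and Sgk1 did not pass the main test. The matches lie 75098 bases (Fkbp5) and 111524 bases (Sgk1) from the annotated start of the gene. Binding of the receptor to them was not tested.

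Tat encodes tyrosine aminotransferase, the classic hepatocyte enzyme induced by glucocorticoids. The gene occupies bases 112514337 to 112523703 of chromosome 8 (+ strand). Its values were 2071, 1845 and 2360 in L-RalyKO and 1838, 1873 and 2031 in controls. The groups overlapped, with L-RalyKO 2 between controls 1 and 2. The mean was 2092 ± 259 against 1914 ± 102 (SD, n = 3), and the log2 fold change was 0.12 (SE 0.093, adjusted p = 0.486, limma). The 95% interval of −0.09 to 0.33 on the log2 scale does not reach the change of Klf9. The log2 fold change was 0.03 without L-RalyKO replicate 3 and 0.21 without L-RalyKO replicate 2, and Tat did not pass the test in any of 14 alternatives.

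Mt1 and Mt2 encode metallothioneins, small cysteine-rich proteins that bind zinc and copper and that glucocorticoids, metals and cytokines all induce. They are neighbours on the + strand of chromosome 8, Mt2 from 96696518 to 96697467 and Mt1 from 96702989 to 96704225, with 5521 bases between them. Mt1 had values of 157, 125 and 184 in L-RalyKO and of 71.6, 75.0 and 81.8 in controls. All L-RalyKO livers were above all controls, and L-RalyKO 3 was the highest. The mean was 155 ± 29.3 against 76.1 ± 5.19 (SD, n = 3), with a log2 fold change of 1.0 (SE 0.12, adjusted p = 0.00343, limma). Mt1 passed the test in all 14 alternatives.
Mt2 had values of 64.7, 50.8 and 109 in L-RalyKO and of 32.7, 34.3 and 30.5 in controls. Here too the groups were apart, and L-RalyKO 3 was far above the other 2. The mean was 74.7 ± 30.2 against 32.5 ± 1.88 (SD, n = 3), with a log2 fold change of 1.11 (SE 0.22, adjusted p = 0.0250, limma). Mt2 passed in 7 of 14 alternatives, and its adjusted p ran from 0.00871 to 0.120. The call was lost without L-RalyKO replicate 1 (adjusted p = 0.0613) and without control replicate 1, 2 or 3 (0.0759, 0.0563 and 0.0525), all from limma. It was lost with edgeR as well (adjusted p = 0.120). In both genes the order of the L-RalyKO mice was the same, with mouse 3 highest and mouse 2 lowest.

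**Figure D2:**
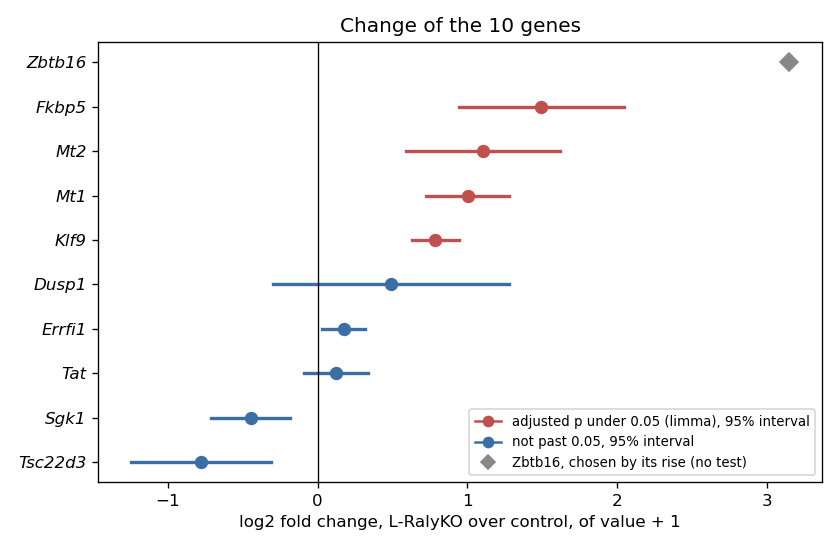
Log2 fold change of value + 1, L-RalyKO over control (horizontal axis), for the 10 genes, with 95% intervals for the 9 that were tested, red where the adjusted p from limma was under 0.05 and blue where not. Fkbp5, Mt2, Mt1 and Klf9 lie between 0.79 and 1.50, Tsc22d3 and Sgk1 lie below zero at −0.78 and −0.45, and Zbtb16 is shown as a grey diamond at 3.15 without a test.

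The mice within a group did not take the same place in every gene. Among controls, mouse 3 had the highest value in 9 of the 10 genes, Mt2 being the exception, and mouse 2 had the lowest in 6. Control 3 was 0.65 above the mean of the controls in Fkbp5, 0.62 in Dusp1 and 0.40 in Zbtb16 on the log2 scale, and between −0.09 and 0.14 from it in the others. Among L-RalyKO mice, mouse 2 was the lowest in 8 genes, Klf9 and Dusp1 being the exceptions. Mouse 3 was the highest in Tsc22d3, Sgk1, Tat, Mt1 and Mt2. In Dusp1 the L-RalyKO mice spread from −0.16 to 1.15 around the mean of the controls, whereas in Klf9 they lay between 0.77 and 0.80.

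**Figure D3:**
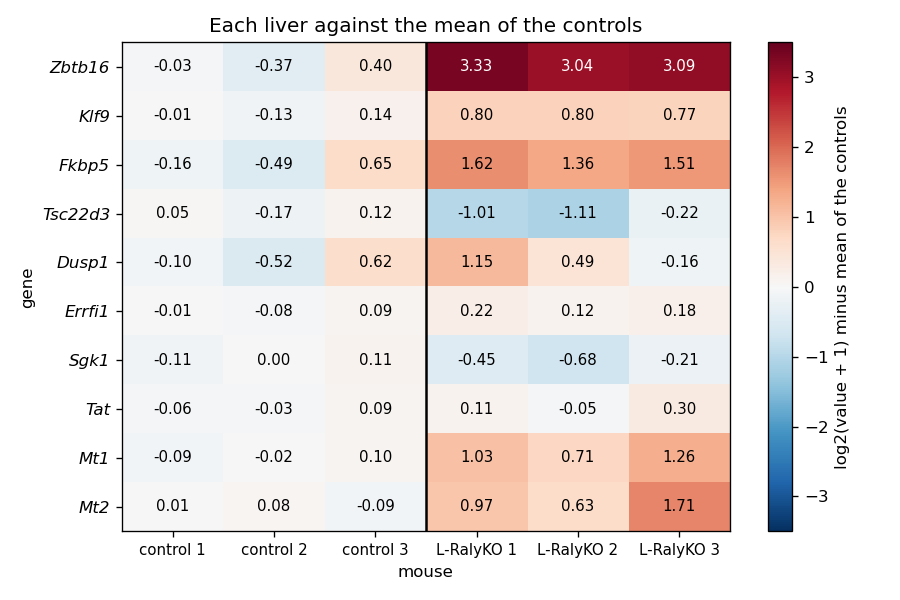
Each cell gives log2(value + 1) of a gene (rows) in a mouse (columns) minus the mean of the 3 controls, red for higher and blue for lower. The L-RalyKO columns are red for Zbtb16, Fkbp5, Klf9, Mt1 and Mt2 and pale red for Errfi1 (0.12 to 0.22), blue for Tsc22d3 and Sgk1, and of mixed sign for Dusp1 (−0.16 to 1.15) and Tat (−0.05 to 0.30).

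Levels of different genes can be compared only per length, so each value was divided by the kilobases of the gene's annotated exons. In controls Tat was the highest at 796 per kilobase, followed by Errfi1, Mt1 (101), Mt2 (58.5), Tsc22d3, Klf9 (27.7), Dusp1, Fkbp5 (12.6), Sgk1 and Zbtb16 (1.94). Dusp1 and Fkbp5 overlapped in controls and their order is not defined. In L-RalyKO, Zbtb16 reached 18.4 per kilobase, which was above Sgk1 and within the range of Dusp1, and Fkbp5 reached 33.9. Among neighbours in the L-RalyKO order, the ranges of Mt1 and Mt2, of Fkbp5 and Tsc22d3, and of Tsc22d3, Dusp1 and Zbtb16 overlapped. Zbtb16 thus moved from the bottom of the order to the range of a moderately expressed member, while Tat (870 per kilobase) and Errfi1 remained the highest of the set.

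**Figure D4:**
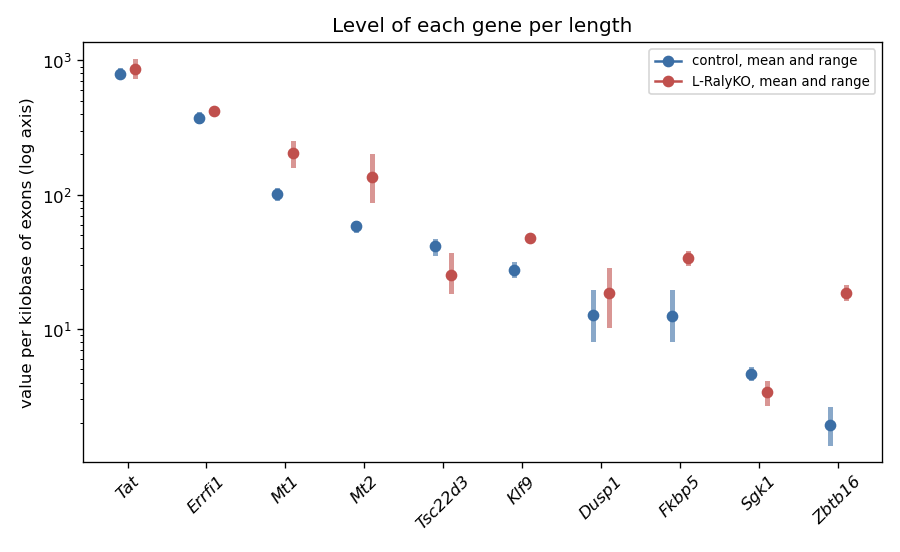
Value per kilobase of exons (vertical axis, logarithmic) of the 10 genes in control (blue) and L-RalyKO (red) livers, with points for means and bars for the range of 3 mice. Tat and Errfi1 are highest in both groups, and Zbtb16 moves from 1.94 to 18.4 per kilobase.

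Likeness to Zbtb16 was measured as the root mean square difference of log2(value + 1), each gene centred on its own mean over the 6 mice. Fkbp5 was the nearest of the 9 (0.838), followed by Mt1 (1.10), Mt2 (1.11) and Klf9 (1.19), and Tsc22d3 was the farthest (2.0). Among all other tested genes the 5 nearest were Scara5 (0.320), Cish (0.600), Foxq1 (0.711), Plcd3 (0.738) and Il1r1 (0.774). Scara5, a scavenger receptor that takes up ferritin, had values of 33.7 ± 3.66 in L-RalyKO and 4.56 ± 1.14 in controls (SD, n = 3). Cish, an inhibitor of STAT5 signalling, had values of 32.6 ± 10.2 and 6.82 ± 4.23 (SD, n = 3). All 5 were nearer to Zbtb16 than any of the 9, but they were picked as the nearest of all other tested genes, so the comparison is uneven. Whether glucocorticoids also regulate these 5 was not examined. Since Zbtb16 had the highest log2 fold change, the measure favours genes with large rises, and no test was made of it.

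The receptor and the genes that handle the hormone were counted next. Of 18 genes listed, 17 were tested, of which 1 rose (3.36% of all genes tested did), 1 fell (3.19%) and 15 did not pass, with a median log2 fold change of 0.00 (0.00 over all genes). The receptor Nr3c1 had values of 85.0, 90.5 and 90.5 in L-RalyKO and of 81.0, 90.9 and 92.6 in controls. The groups overlapped, with a log2 fold change of 0.01 (SE 0.062, 95% interval −0.13 to 0.15, adjusted p = 0.945, limma). For Hsd11b1, the enzyme that regenerates active hormone in liver, the log2 fold change was −0.12 (limma, adjusted p = 0.199), with all L-RalyKO livers below all controls. For Fkbp4, a related co-chaperone of the receptor, it was −0.02 (limma, adjusted p = 0.853).
Serpina6, the plasma carrier of glucocorticoids, rose from 178 ± 19.8 to 226 ± 12.2 (SD, n = 3, log2 fold change 0.35, adjusted p = 0.0411, limma). This call was lost in 5 of the 6 fits that left out a mouse, each except the one without control replicate 2. Nr3c2, the mineralocorticoid receptor, fell from 15.9 ± 2.79 to 7.93 ± 0.662 (SD, n = 3, log2 fold change −0.91, adjusted p = 0.00523, limma).

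Other known glucocorticoid targets also differed from each other. Of 26 listed, 24 were tested, of which 4 rose (3.36% of all genes), 1 fell (3.19%) and 19 did not pass, with a median log2 fold change of −0.03. Every L-RalyKO mouse was above every control in 8 of them (14.4% of all genes) and below in 6 (13.7%). Pck1, which commits carbon to gluconeogenesis, rose from 3185 ± 382 to 5448 ± 150 (SD, n = 3, log2 fold change 0.78, adjusted p = 0.00312, limma). G6pc, which releases glucose at the end of that pathway, fell from 990.3 ± 87.5 to 651 ± 92.1 (SD, n = 3, log2 fold change −0.61, adjusted p = 0.0125, limma). These enzymes of gluconeogenesis thus changed in opposite directions.
Lpin1, a phosphatidate phosphatase, rose by 1.36 on the log2 scale (adjusted p = 0.0120, limma), although edgeR did not call it (adjusted p = 0.0914). Tdo2, which opens tryptophan breakdown, rose by 0.37 (adjusted p = 0.0265), and Orm1, an acute phase protein, by 0.25 (adjusted p = 0.0173), both from limma. Per1, a clock gene with a well-known receptor response, was at −0.07 on the log2 scale (limma, adjusted p = 0.808).
The count of calls depended on control 3. Without that mouse 10 of the 24 passed, 8 higher and 2 lower, and the added genes were Cdkn1a, Sds, Got1, Pim3 and Bcl6, named after their values were seen. In Sds the controls had values of 151, 156 and 251, the last being control 3, against 268, 298 and 295 in L-RalyKO. Bcl6 had 59.3, 48.2 and 13.9 in controls, again with control 3 nearest to the L-RalyKO livers at 8.99, 12.6 and 10.2. Without L-RalyKO replicate 1, control replicate 1 or control replicate 2 the count was 3 each time, Pck1 and Lpin1 higher and G6pc lower. Without L-RalyKO replicate 3 the count was 5, Pck1 and Lpin1 higher and G6pc, Ddit4 and Nfkbia lower, the last 2 also named after their values were seen.

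**Figure D5:**
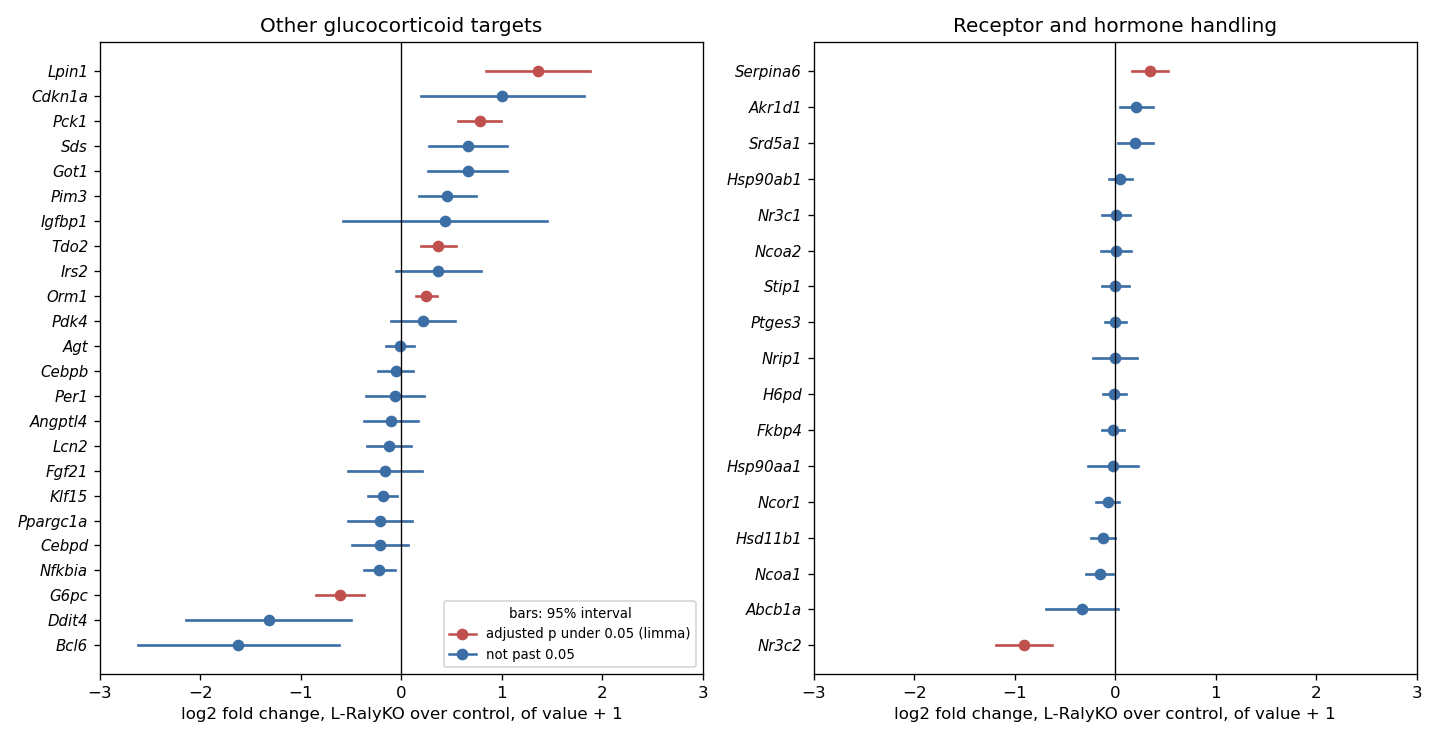
Log2 fold change of value + 1 with 95% interval, L-RalyKO over control (horizontal axis), for 24 other glucocorticoid targets (left) and 17 genes of the receptor and hormone handling (right), red where the adjusted p from limma was under 0.05. Targets lie on both sides of zero, from Lpin1 at 1.36 to Bcl6 at −1.62, and most genes on the right lie close to zero with Nr3c2 at −0.91.

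Genes of neighbouring responses that also move some of the 10 were counted in the same way. Of 5 genes of zinc handling, none rose and 1 fell (3.19% of all genes did), Slc30a10, a manganese exporter of the zinc transporter family, from 37.5 ± 4.66 to 20.5 ± 1.20 (SD, n = 3, log2 fold change −0.84, adjusted p = 0.00195, limma). Mtf1, the metal-sensing transcription factor of metallothionein genes, was at −0.06 on the log2 scale (limma, adjusted p = 0.628). Slc30a1, a zinc exporter that Mtf1 induces, had values of 59.3, 58.4 and 62.7 in L-RalyKO and of 50.9, 52.5 and 54.0 in controls. The groups did not overlap, but the test was not passed (log2 fold change 0.19, adjusted p = 0.0614, limma). None of 6 antioxidant response genes passed with limma, edgeR or DESeq2, and none had an unadjusted p under 0.05, where 6.55% of all genes passed with limma and 2632 of 11580 had an unadjusted p under 0.05.
Of 9 tested acute phase genes, a list that includes the signalling genes Il6ra and Socs3, 4 rose (3.36% of all genes did) and none fell. The median log2 fold change was 0.22, and 0.11 without L-RalyKO replicate 3. With a mean value of at least 5 it was 0.49 over 6 genes. Socs3, a feedback inhibitor of cytokine signalling, rose by 1.51 (adjusted p = 0.0214), and Saa1, serum amyloid A, by 0.79 (adjusted p = 0.0118), both from limma on the log2 scale, and edgeR did not call Socs3 (adjusted p = 0.0782). Il6ra, the interleukin 6 receptor, rose by 0.74 (adjusted p = 0.00566, limma). Orm1, counted among the other glucocorticoid targets as well, was the remaining gene. The count fell to 2, Saa1 and Il6ra, without L-RalyKO replicate 1 or 2 or control replicate 1 or 2.
Of 9 tested immediate early genes, Ier2 alone rose (log2 fold change 0.75, adjusted p = 0.0376, limma), where 3.36% of all genes did. The median was 0.63, or 0.41 without L-RalyKO replicate 1. It was 0.36 over 10 genes when all genes with at least 1 read were tested. With a mean value of at least 5 it was 0.76 over 6 genes. In 4 of the 9 every L-RalyKO liver was above every control, where 14.4% of all tested genes show this. Ier2 was not called by edgeR (adjusted p = 0.0803). The count was 0 without L-RalyKO replicate 1 or 2 or control replicate 1 or 2, 2 without L-RalyKO replicate 3 and 3 without control replicate 3.
Of 14 tested clock genes, Nfil3, a repressor that acts on clock output, alone rose, from 12.5 ± 2.77 to 21.0 ± 0.127 (SD, n = 3, log2 fold change 0.73, adjusted p = 0.0185, limma). Of all genes tested 3.36% rose. The median was 0.12, with 0.07 without L-RalyKO replicate 1, 0.06 without L-RalyKO replicate 2 and 0.19 without control replicate 2. The count was 0 without any 1 of the L-RalyKO mice and 2 without control replicate 3.

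Markers of liver cell types were compared as sums over their lists. The 8 hepatocyte markers, of which Tat is 1, summed to 109878 to 110690 in L-RalyKO and 98852 to 107158 in controls. Hnf4a was the only one called (log2 fold change 0.55, adjusted p = 0.0155, limma). All 8 had a higher mean in L-RalyKO. In 4 of them every L-RalyKO liver was above every control, where 14.4% of all tested genes show this. The sums of the 7 Kupffer cell markers were 161 to 209 and 156 to 234, those of the 6 endothelial markers 161 to 207 and 189 to 196, and those of the 7 stellate cell markers 211 to 278 and 220 to 245. None of these 20 genes passed the test. All 6 endothelial markers had a lower mean in L-RalyKO, as had 4 Kupffer cell markers and 1 stellate cell marker. Of all genes tested 3.36% rose and 3.19% fell. Of 7 adipocyte markers 3 were tested, of which Cfd fell (log2 fold change −2.10, adjusted p = 0.0318) and Adrb3 rose (log2 fold change 0.66, adjusted p = 0.0120), both from limma. Of the 7, 1 had a higher and 6 a lower mean in L-RalyKO. Lep and Retn had reads in control 1 alone (7 and 5). Cfd had values of 12.6, 2.74 and 3.46 in controls and was not called by edgeR (adjusted p = 0.143). The sum of the adipocyte list was 10.8 to 12.2 in L-RalyKO and 11.0 to 23.8 in controls, Plin1 had under 3 reads in every liver, and the part of these cells in the changes was not tested. The 3 tested cholangiocyte genes and 1 tested neutrophil gene did not pass, and no B cell marker reached the filter.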

How the data were processed

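Liver RNA-seq of 3 L-RalyKO and 3 control mice was analysed, and the ATAC-seq and ChIP-seq samples were not used here. A figure legend of the study gives more mice per group for this experiment than the 3 analysed here. Per the methods, stranded libraries were aligned with TopHat to mm9 and quantified as FPKM with Cufflinks 2.0.2. The values the authors deposited are instead a normalized signal, reads per gene relative to effective library size (CPM), and 100% of them were whole multiples of 1 read (tolerance 0.01 read). The scaling factors equalled TMM factors computed anew. Columns were matched to mice by virus and replicate number, with 0 left unmatched.

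Groups were compared with limma 3.58.1 (R 4.3.3, intensity trend, unpaired) on log2(value + 1). Genes whose value averaged 1 or more over the mice were tested, with Benjamini-Hochberg adjustment over all of them. The design allowed for raw counts, and limma was used because the values were normalized. The script was tested on simulated data. Alternatives were edgeR 4.0.16 and DESeq2 1.42.0 on recovered reads, total count scaling, all genes with at least 1 read, a mean of at least 5, a pseudocount of 0.1, no intensity trend, a replicate block and leaving out each mouse. The smallest p of an exact permutation test of 3 mice against 3 is 0.1.

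The members and gene lists were chosen with earlier results of these data known. Named genes were all members, up to 6 called genes of each list, Nr3c1, Hsd11b1, Serpina6, Fkbp4, Per1, Pck1, Mtf1 and Slc30a1, Raly, and the 5 genes nearest to Zbtb16. Cd3e, Klrb1c, Il2rb, Xcl1, Plin1, Lep and Retn, from the marker lists, fall outside this rule and were chosen once their values were known. Other exceptions are stated where they occur. Promoters are RefSeq's (GRCm38.p6), and other coordinates and exon lengths are GENCODE vM1's (NCBIM37).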

Additional observations from a re-analysis of the deposited data

How the results depend on the processing

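All 140 values of the 10 genes under the 14 alternatives kept their direction, and scaling moved the median log2 fold change of all genes by at most 0.03. The genes called numbered 758, against 484 when all genes with at least 1 read were tested, and 332 to 813 when a mouse was left out (332 without L-RalyKO replicate 1, 437 without L-RalyKO replicate 2, 369 without control replicate 1 and 491 without L-RalyKO replicate 3). EdgeR called 783 and DESeq2 1084. Members called higher numbered 4, against 2 with edgeR and 3 to 4 with a mouse left out. Members called lower numbered 0, against 2 with total count scaling, 1 with DESeq2 and 2 without L-RalyKO replicate 3. Of other glucocorticoid targets 5 were called, and 3 to 10 with a mouse left out. Receptor and hormone genes fell from 2 called to 1 with all genes tested and without an intensity trend, and to between 1 and 2 with a mouse left out. Immediate early genes went from 1 to 0 with edgeR, all genes tested and no intensity trend, to 2 with DESeq2 and with total count scaling, and to between 0 and 3 with a mouse left out. Acute phase genes numbered 4, and 2 to 4 with a mouse left out. Clock genes went from 1 to 4 with DESeq2, to 2 without an intensity trend and to between 0 and 2 with a mouse left out. The cause of these shifts was not tested.

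Same-numbered mice did not deviate together over all tested genes (correlations across genes of 0.07, −0.02 and 0.02). Whether the numbers mark a shared batch or litter was not tested. With the replicate number as a block 704 genes were called, 4 members were higher and Tsc22d3 and Sgk1 were called lower, and 7 other targets, 1 receptor or hormone gene, 0 immediate early genes and 2 clock genes were called. Every value of the 10 genes rested on at least 207 reads, whereas most lymphocyte markers were under the filter. The effect of depth on the calls was not tested.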
